A study of Mus musculus with 4 samples.

Results

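The alpha-beta T cell receptor complex and its coreceptors are encoded here by 10 genes: the receptor constant genes Trac, Trbc1 and Trbc2, the CD3 chain genes Cd3d, Cd3e, Cd3g and Cd247, and the coreceptor genes Cd4, Cd8a and Cd8b1. They were chosen by name as the constant chains, CD3 chains and coreceptors, and all 10 were found among the 50600 genes listed. RNA was measured in 4 libraries of primary T cells from the mouse strain C57BL/6NJ, given as 4 biological replicates of a single group with no treatment, age or sex recorded. The labels give all 4 the same donor identifier, so every p-value here reflects spread among these libraries alone, which may be technical. Sample names in the file headers read Th0, activated and 48 h, terms absent from the labels. A differentiation protocol linked in the labels is named for CD4+ T cells.

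In an alpha-beta T cell the alpha and beta chains bind peptide held by an MHC molecule but have almost no signalling tail of their own. The signal is passed on by the CD3 gamma, delta and epsilon chains and the zeta chain, whose tails carry pairs of tyrosines that Lck phosphorylates and ZAP-70 then binds. CD4 and CD8 bind class II and class I MHC molecules and bring Lck to the receptor; CD8 beta reaches the surface together with CD8 alpha.

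The motifs that make these chains a signalling machine are short and can be read in the coding sequences (GENCODE M21, mm10). The activation motif was searched as a tyrosine codon, any 2 codons, a leucine or isoleucine codon, 6 to 8 further codons, and the same 4-codon block again. The search covered the CD3 chain genes only. It found the motif 6 times, once in each of Cd3d, Cd3e and Cd3g and 3 times in Cd247. The other 6 genes were not searched for it. The tyrosine and the leucine or isoleucine codons are in capitals, and each motif is split by an intron in the genome.
Cd3d: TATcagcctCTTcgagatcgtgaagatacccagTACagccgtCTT
Cd3e: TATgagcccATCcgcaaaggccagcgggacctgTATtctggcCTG
Cd3g: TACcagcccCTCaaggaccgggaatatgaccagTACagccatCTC
Cd247, first: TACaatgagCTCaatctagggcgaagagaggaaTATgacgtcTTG
Cd247, second: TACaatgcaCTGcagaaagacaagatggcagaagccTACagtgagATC
Cd247, last: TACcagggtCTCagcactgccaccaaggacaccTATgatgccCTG

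The coreceptor tails hold the paired cysteines with which CD4 and CD8 alpha clasp Lck. The stretches below code for the pair, found as a cysteine, any, a cysteine and a proline codon, with the cysteine codons in capitals. No such pair was found in the coding sequence of Cd8b1.
Cd4: aagaagaccTGCcagTGCccccaccggatg
Cd8a: aagcgtgttTGCaaaTGTcccaggccgcta

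The beta chain has a pair of near-identical constant genes, and their difference matters for what the counts can resolve. In the 60 coding bases shown, positions 446 to 505 of each coding sequence counted from its first base, 11 bases differ and are in capitals. The Trbc1 stretch lies at chr6:41539281-41539340 on the plus strand, and the Trbc2 stretch is split by an intron.
Trbc1: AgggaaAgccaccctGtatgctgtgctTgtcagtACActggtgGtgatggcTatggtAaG
Trbc2: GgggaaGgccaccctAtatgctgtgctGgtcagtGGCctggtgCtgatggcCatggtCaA

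The libraries held 45110199 to 127755788 counts, a 2.83-fold range, with replicate 3 the deepest. A gene without a count in the shallowest library can lie at up to 0.0665 CPM (counts scaled to a fixed library total), a limit that covers counting error only. The defining T cell markers, Cd3d, Cd3e, Cd3g and Trac, are themselves among the 10 genes, so they give no separate check of the label; their summed level was 1010 to 1050 CPM. Of the markers of other cells, 0 of 6 NK cell, 0 of 5 neutrophil and 0 of 6 erythroid genes were above 1 CPM by limma. The same 0 came from an unadjusted p below 0.05 and from edgeR, and the summed levels of these lists were at most 0.0665, 0.111 and 0.0527 CPM. Of 8 B cell genes 1 was above and 6 below, against 47.4% and 48.3% of all genes tested. The one above, Ighm, stood at 160.6 CPM ± 15.1, with the summed list at 149 to 183 CPM. Of 8 dendritic cell genes 3 were above and 4 below (summed 121 to 128 CPM, Itgax without a count). Those above were Cd74 at 108.2 CPM, H2-Ab1 at 9.59 and Zbtb46 at 5.76, so Cd74 gave most of the sum. Of 7 macrophage and monocyte genes 2 were above, Adgre1 and Cd68, and 3 below (4.61 to 6.13 CPM, Lyz2 and Fcgr1 without a count). The part of these cells in the levels that follow was not tested.

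Of the 10 receptor and coreceptor genes, 9 were above 1 CPM and 1, Cd8a, was below it. The test was limma's one-sided test of mean log2(CPM + 0.1) against that level, adjusted over all 23365 genes with a count. In that fit 47.4% of all genes were above and 48.3% below. The median of the 10 genes was 185.7 CPM, against 0.9018 CPM over all genes tested. In a bulk sample, fewer cells that express a gene and less RNA per cell cannot be told apart.

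**Figure D1:**
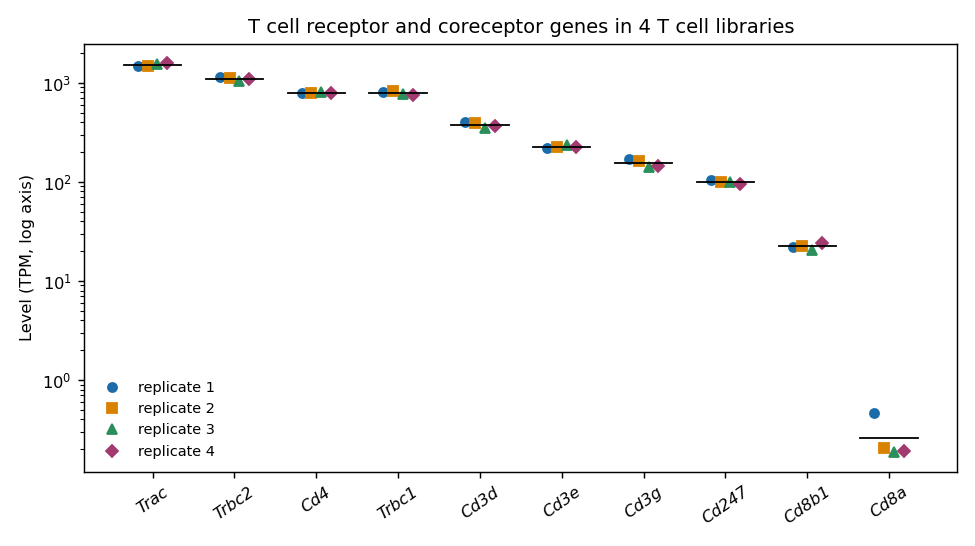
Level of the 10 genes in TPM (vertical log axis) in each of the 4 libraries (symbols), ordered by mean (black line). The libraries lie close together for 9 genes, whereas for Cd8a replicate 1 at 0.461 TPM stands above the other libraries at 0.187 to 0.209.

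The constant gene of the alpha chain was the highest of the 10 genes per length. In TPM (counts divided by the gene's summed exon length and scaled to a fixed total), Trac (ENSMUSG00000076928.5, chr14:54220521-54224206, plus strand, mm10) stood at 1487, 1477, 1549 and 1564 TPM in replicates 1 to 4. Replicates 3 and 4 were the higher ones, and the mean was 1519 TPM ± 43.5 (SD, n = 4). Only 47 of 15076 protein-coding genes, or 0.312%, had a higher mean TPM. Within 100 kb of Trac, the delta chain constant gene Trdc, which would be part of a gamma-delta receptor, had 21, 16, 77 and 14 counts, or 0.353 TPM ± 0.132.

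Both beta chain constant genes were expressed at a high level, with Trbc2 above Trbc1 in every library when counts were divided by summed exon length. Trbc2 (ENSMUSG00000076498.2, chr6:41546730-41548352, plus strand) stood at 1150, 1113, 1035 and 1083 TPM (mean 1095 ± 48.6). Trbc1 (ENSMUSG00000076490.6, chr6:41538218-41539881, plus strand) stood at 803.4, 823.4, 771.2 and 753.8 TPM (mean 788.0 ± 31.3). Their ranges did not overlap. Within libraries, the log2 ratio of Trbc2 over Trbc1 was 0.47 ± 0.05 (SD, n = 4; 1.39-fold; adjusted p = 3.78e-05, limma), and Trbc2 was higher in 4 of 4 libraries. This order depended on the length, though only the following length setting reversed it. With the APPRIS principal transcripts, an alternative chosen after the data were seen, the log2 ratio of Trbc1 over Trbc2 was 0.07 (adjusted p = 0.135, limma), at 802.4 TPM ± 31.2 for Trbc1 and 762.5 ± 31.8 for Trbc2. The principal transcript of Trbc1 has 512 bases, all of them coding, while that of Trbc2 has 692 bases, of which 518 are coding.

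The pair stands 6.8 kb apart, each gene behind its own cluster of joining (J) segments: 7 Trbj1 segments before Trbc1 and 7 Trbj2 segments before Trbc2. Their coding sequences, 512 and 518 bases, aligned with 24 substitutions at 94.2% identity, and the longest stretch without a difference was 259 bases. No other annotated transcript matched any of the 10 genes at 90% identity or more over at least 50% of its length. The recorded counting command names neither of the options that keep read pairs matching several places or genes, and the program's default leaves such pairs out. The level of each beta gene, the division between them and their sum are therefore uncertain, and how many pairs this touched was not tested.

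Trbc1 took 43.06% of the beta constant counts in replicate 1 (95% Wilson interval 42.42 to 43.69), 44.46% in replicate 2 (43.74 to 45.18), 44.64% in replicate 3 (44.20 to 45.09) and 42.96% in replicate 4 (42.28 to 43.64). Replicates 2 and 3 were higher than replicates 1 and 4, with intervals that did not overlap. The mean share was 43.78% ± 0.895 (SD, n = 4) in counts and 41.84% in TPM, where the longer summed exons of Trbc1 scale it down. With principal transcript lengths it was 51.28%, so which gene held the larger part depended on the length. No other length setting reversed the order of Trbc1 and Trbc2. Intervals cover counting error only, since the counts carry no molecular identifiers.

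The division between the joining clusters rests on far fewer counts. The Trbj2 total includes Trbj2-6, annotated as a pseudogene, with 127, 106, 298 and 141 counts in replicates 1 to 4. Leaving it out would raise each Trbj1 share. The default that leaves out pairs matching several genes applies to these counts too. Trbj1 segments held 531 of 1320 J segment counts in replicate 1 (40.23%, interval 37.61 to 42.90) and 497 of 1105 in replicate 2 (44.98%, 42.07 to 47.92). They held 1095 of 2966 in replicate 3 (36.92%, 35.20 to 38.67) and 525 of 1311 in replicate 4 (40.05%, 37.43 to 42.72). The mean was 40.54% ± 3.32 (n = 4). The intervals of the J and constant gene shares overlapped in replicates 1, 2 and 4 and not in replicate 3, where the J share was the lower. This comparison was not made without Trbj2-6.

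**Figure D2:**
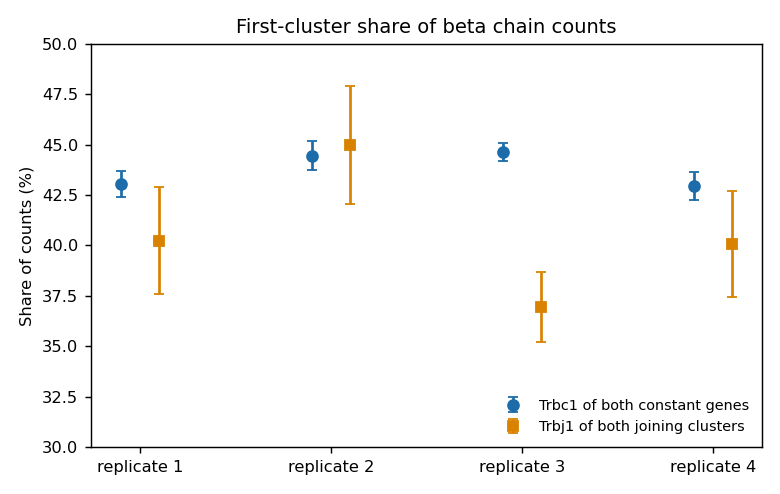
Share of counts in percent (vertical axis, from 30 to 50%) taken by Trbc1 among both beta constant genes (circles) and by Trbj1 among both joining clusters (squares), per library, with 95% Wilson intervals. The constant gene share stays between 42.96 and 44.64%, and the joining share runs from 36.92 to 44.98% with wider intervals. The joining clusters include the annotated pseudogene Trbj2-6.

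Taken as 1 chain, the beta constant genes exceeded the alpha constant gene. Their summed level was 1953, 1937, 1806 and 1837 TPM (mean 1883 ± 72.7), above Trac in 4 of 4 libraries. The log2 ratio was 0.31 ± 0.10 (SD, n = 4), or 1.24-fold, with an adjusted p of 0.00131 by limma on log2(TPM + 0.1). The direction rests on the length correction: in CPM the log2 ratio was -0.08 (adjusted p = 0.0804).

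The CD3 chain genes were all lower per length than the receptor constant genes. Cd3d, the delta chain gene (ENSMUSG00000032094.8, chr9:44981786-44987339, plus strand), stood at 403.7, 392.7, 347.3 and 364.0 TPM (mean 376.9 ± 25.9). Cd3g, the gamma chain gene (ENSMUSG00000002033.14, chr9:44969572-44980431, minus strand), stood at 168.6, 162.9, 142.3 and 143.5 TPM (mean 154.3 ± 13.4). For both genes replicates 1 and 2 were above replicates 3 and 4.

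Cd3e, the epsilon chain gene (ENSMUSG00000032093.7, chr9:44998740-45009627, minus strand), showed the opposite order, at 221.0, 225.8, 234.1 and 226.9 TPM (mean 227.0 ± 5.42), with replicate 1 the lowest and replicate 3 the highest. Cd247, which encodes the zeta chain with its 3 motifs (ENSMUSG00000005763.15, chr1:165788681-165877277, plus strand), stood at 104.2, 99.88, 99.30 and 95.16 TPM (mean 99.64 ± 3.71). It was the lowest of the CD3 chain genes in every library. Of its exonic bases, 206 (3.87%) lie in Gm16565 on the same strand and 3007 in Pou2f1 on the opposite strand. The counting used strand, and Gm16565 itself had 168, 165, 432 and 168 counts.

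Which CD3 gene led depended on the length used. In the order above Cd3d exceeded Cd3e (log2 ratio 0.73 ± 0.13, adjusted p = 1.93e-05, limma, n = 4) and Cd3g (1.29 ± 0.04, adjusted p = 8.58e-09). The summed exons of Cd3e and Cd3g, 4080 and 3269 bases, far exceed their longest coding transcripts of 1462 and 1023 bases. For Cd3d the 2 lengths were close, 1815 and 1617 bases. Transcripts annotated with a retained intron numbered 3 for Cd3e and 1 each for Cd3g and Cd3d.

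With the length of the longest coding transcript, an alternative chosen after the data were seen, Cd3e was the highest at 460.5 TPM ± 12.3, then Cd3g at 358.4 ± 30.3, Cd3d at 307.5 ± 20.4 and Cd247 at 130.5 ± 4.61. The log2 ratio of Cd3d over Cd3e then was -0.58 ± 0.13 (adjusted p = 5.13e-05), and that of Cd3d over Cd3g -0.22 ± 0.04 (adjusted p = 0.00601). Both pairs thus passed limma's test in opposite directions under the 2 lengths. Cd247 was the lowest CD3 chain gene under either, and at 226.5 TPM also with the shorter principal transcript.

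**Figure D3:**
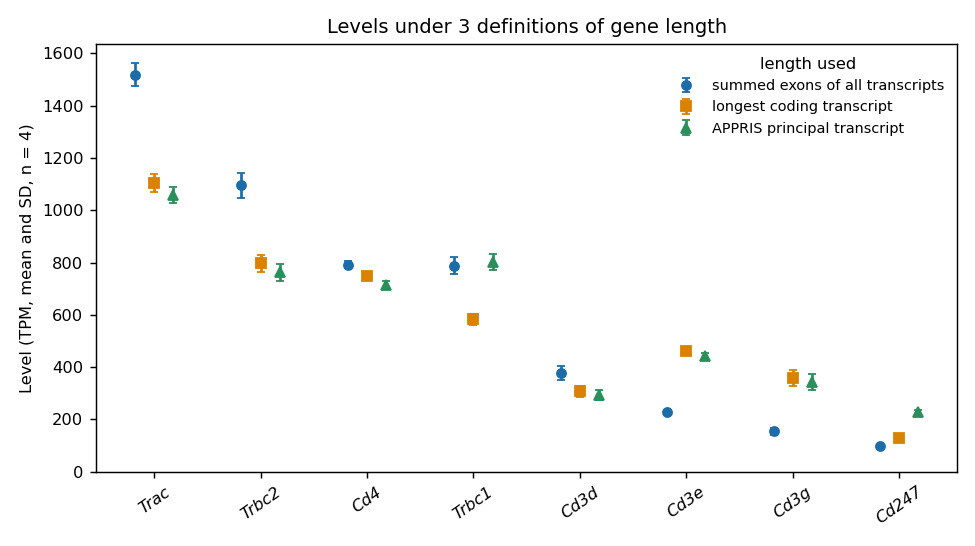
Mean level in TPM (vertical axis, from 0) of the 8 genes other than Cd8a and Cd8b1 under 3 definitions of gene length (symbols); bars are the SD over 4 libraries. Cd3d leads the CD3 chains with summed exons at 376.9 TPM, and Cd3e leads them with the longest coding transcript at 460.5 TPM.

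The coreceptor genes spanned the whole range of the 10 genes. Cd4, which encodes the class II coreceptor (chr6:124864692-124888221, minus strand), stood at 781.5, 785.2, 814.4 and 788.1 TPM. Replicate 3 was the highest, and the libraries differed by a coefficient of variation of 1.89%. In CPM, where long transcripts weigh more, Cd4 was the first of the 10 genes at 930.6 CPM ± 9.79; per length it stood behind Trac and Trbc2.

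Of the class I coreceptor genes, only Cd8b1 was above 1 CPM. Cd8b1, the beta chain gene (ENSMUSG00000053044.8, chr6:71322788-71337494, plus strand), had 545, 439, 1107 and 560 counts, or 22.01, 22.45, 20.30 and 24.24 TPM, with replicate 4 the highest. Cd8a, the alpha chain gene (ENSMUSG00000053977.13, chr6:71373427-71379173, plus strand), had 28, 10, 25 and 11 counts, or 0.461, 0.209, 0.187 and 0.194 TPM. It lay below 1 CPM (adjusted p = 0.000121, limma, n = 4) in every library, and 78.9% of protein-coding genes with a count had a higher TPM.

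Cd8a was below Cd8b1 in 4 of 4 libraries, and the log2 ratio of Cd8a over Cd8b1 was -6.00 ± 0.48 (limma on log2(TPM + 0.1), adjusted p = 2.19e-08). Because Cd8a lies near the pseudocount, the size depends on it and was -6.45 with a pseudocount of 0.01 and -4.21 with 1. The genes lie 35.9 kb apart on the same strand. The list of CD8 T cell and cytotoxic markers, which holds Cd8a and Cd8b1 themselves, had 5 of 10 genes above 1 CPM, a share near the 47.4% of all genes. Those above were Cd8b1, Ccl5, Nkg7, Eomes and Gzmb. Another 4, Cd8a, Gzma, Prf1 and Klrg1, were below, against 48.3% of all genes, and Gzmk had no count. The summed level of the list was 22.0 to 22.9 CPM, of which Cd8b1 gave 9.62 on average. Of 7 thymocyte markers 2 were above (Cd8b1 and Cd1d1) and 3 below (Cd8a, Dntt and Ptcra), and Rag1 and Rag2 had no count. The summed level of the thymocyte list was 11.3 to 14.6 CPM. The part of either cell type in the Cd8b1 level was not tested.

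Set side by side, 44 of the 45 pairs of these genes differed in TPM, each in the same order in every library. For any gene against any of the 10, the share was 97.6%, so a called pair is no particular result, and pairs that share a gene share its error. The exception was Trbc1 and Cd4 (log2 ratio -0.01 ± 0.07, adjusted p = 0.862, limma, n = 4; Trbc1 higher in 2 of 4 libraries). The order of the means was Trac, Trbc2, Cd4, Trbc1, Cd3d, Cd3e, Cd3g, Cd247, Cd8b1 and Cd8a, and only Cd4 and Trbc1 were neighbours that were not told apart. With coding transcript lengths, though not with principal ones, the order of the first 4 was kept, but Trbc2 over Cd4 moved to 0.09 (adjusted p = 0.0883) and Trbc1 over Cd4 to -0.36 (adjusted p = 0.000118).

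Most of these genes varied little between the 4 libraries. The biological coefficient of variation estimated by edgeR ran from 4.59% for Cd247 to 9.14% for Cd8b1, and reached 27.7% for Cd8a. Its median was 6.53% over the 13279 genes kept. Each estimate is drawn towards the trend over all genes, so it does not rank the genes by their observed spread. In TPM the observed coefficient of variation was lowest for Cd4 at 1.89%, then Cd3e at 2.39%, Trac at 2.86% and Cd247 at 3.73%. It was highest for Cd8a at 50.5%. By edgeR's goodness-of-fit test 0 of the 10 genes were more variable than the trend (0.422% of the 13279 genes kept were). At an unadjusted p below 0.05 the edgeR test gave 1, Cd3g, with an adjusted p of 0.527.

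Cd3d and Cd3g moved alike across the libraries. Their log2 CPM deviated from the gene's mean by 0.11 and 0.14 in replicate 1, by 0.06 and 0.08 in replicate 2, by -0.13 and -0.13 in replicate 3 and by -0.04 and -0.09 in replicate 4. Cd3e, the remaining gene of the cluster, deviated by -0.03 to 0.03. The ratio of Cd3d over Cd3g accordingly had an SD of 0.04 on the log2 scale, against 0.13 for Cd3d over Cd3e. The likeness was not particular to Cd3g, since Cd3d over Trbc2, on chromosome 6, also had an SD of 0.04. For Cd3d over Trbc1, Cd247, Cd8b1, Cd4, Trac and Cd8a the SD was 0.065, 0.076, 0.123, 0.124, 0.137 and 0.394. Some pairs without Cd3d were tighter than Cd3d over Cd3g at 0.037. They were Cd3e over Cd4 at 0.012, Cd3e over Trac at 0.033 and Trac over Cd4 at 0.034. All remaining pairs of the receptor and coreceptor genes had a larger SD than Cd3d over Cd3g. Neither Cd3d nor Cd3g was called more variable than the trend by edgeR's goodness-of-fit test. With 4 libraries no correlation was computed.

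**Figure D4:**
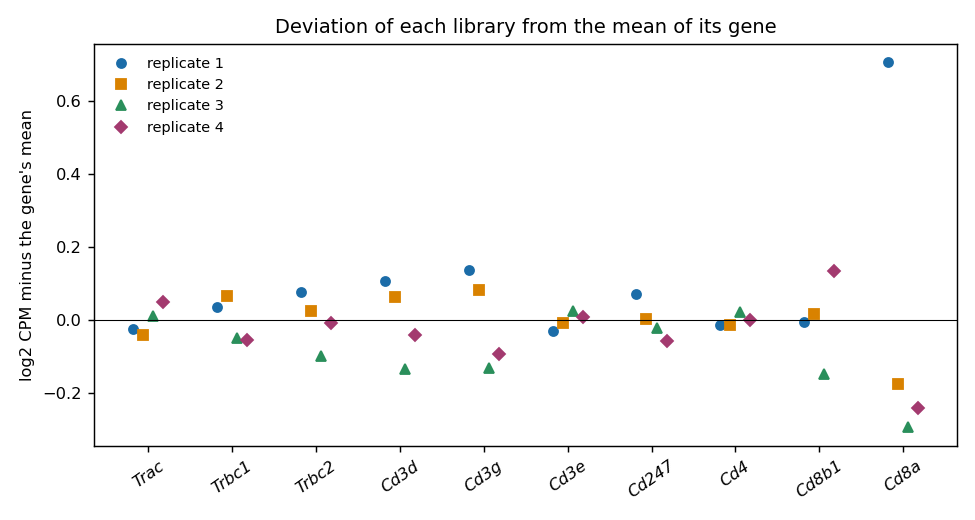
Log2 CPM of each library minus the gene's mean over 4 libraries (vertical axis) for the 10 genes. Cd3d and Cd3g are high in replicates 1 and 2 and low in replicate 3 at -0.13 each, Cd3e and Cd4 stay within 0.03, and Cd8a in replicate 1 stands at 0.71.

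The CD3 genes form a compact cluster on chromosome 9 whose protein-coding neighbours were lower. Cd3g and Cd3d are divergent and 1.4 kb apart, and Cd3e lies 11.4 kb beyond Cd3d. The next protein-coding genes, Ube4a on one side and Mpzl2 on the other, stood at 43.12 TPM ± 2.03 and 1.78 TPM ± 0.127. Cd4 lies 16.1 kb from Lag3, which encodes another receptor for class II MHC (176.9 TPM ± 14.8), and 50.4 kb from the glycolytic enzyme gene Tpi1 (1574 TPM ± 23.1). Between Tpi1 and Cd4, Gpr162, 0.7 kb from Cd4, stood at 1.36 TPM ± 0.173.

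Around the Cd8 genes, Smyd1, 0.6 kb from Cd8b1 on the opposite strand, was at 0.18 TPM ± 0.133. Rmnd5a, 9.5 kb from Cd8a, was at 69.33 TPM ± 2.37, and Krcc1, 37.5 kb from Cd8b1, at 53.66 TPM ± 2.62. The low level of Cd8a thus lay between genes that were expressed.

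**Figure D5:**
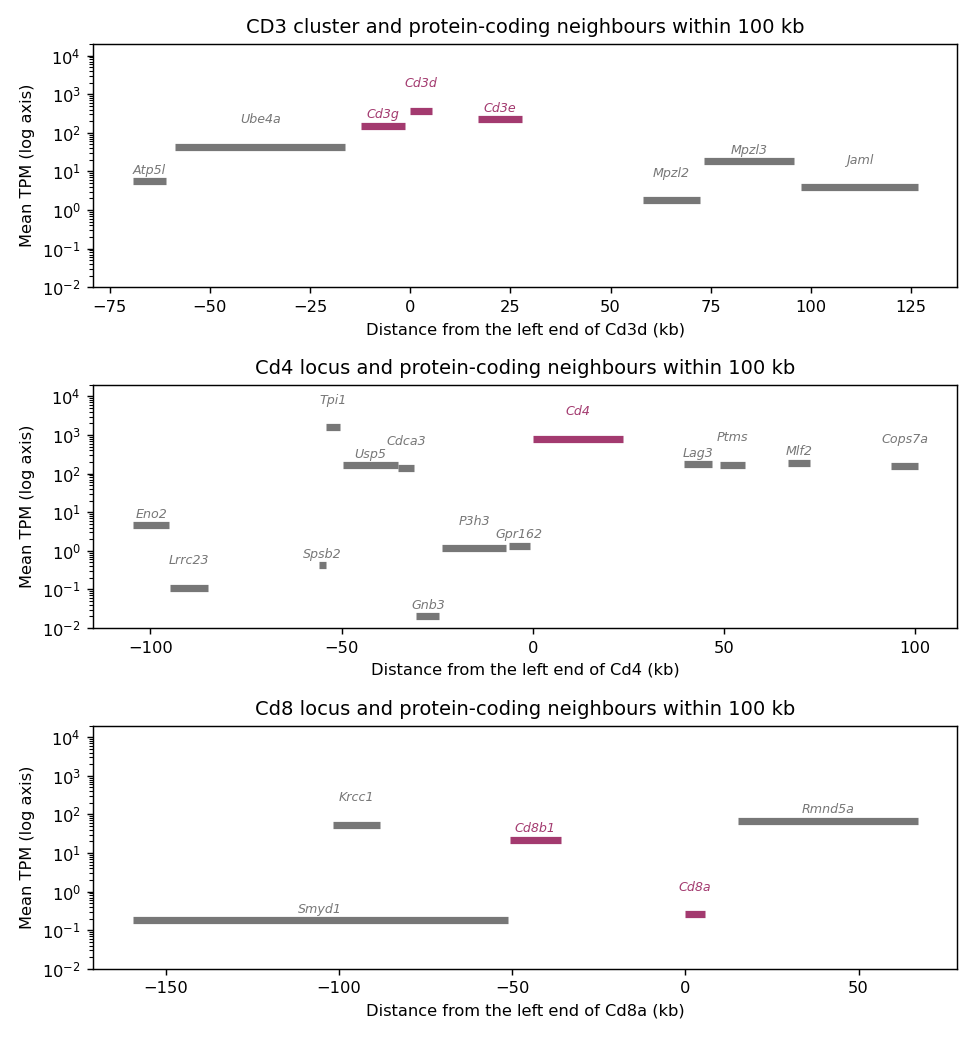
Mean TPM (vertical log axis) of the CD3, Cd4 and Cd8 genes (purple) and their protein-coding neighbours within 100 kb (grey), placed by distance in kb from the left end of the reference gene. The 3 CD3 genes lie between 154.3 and 376.9 TPM above their neighbours, and Cd8a at 0.263 TPM lies between Cd8b1 at 22.25 and Rmnd5a at 69.33.

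Genes of the receptor's alternatives and of its assembly were mostly low. Of 10 such genes 1 was above 1 CPM and 6 were below, against 47.4% and 48.3% of all genes tested. Rag1, Rag2 and Tcrg-C4 had no count. The one above was Trat1, which encodes an adaptor that associates with the receptor, at 22.76 CPM ± 1.52. Fcer1g, whose product can stand in for the zeta chain, was at 0.395 CPM ± 0.102, and its 29, 12, 55 and 20 counts compare with 7018 to 19458 for Cd247. The gamma chain constant gene Tcrg-C1 had 0, 9, 12 and 3 counts and Tcrg-C2 10, all of them in replicate 3. Trdc was below 1 CPM. Dntt, which encodes the enzyme that adds bases at V(D)J joints, had 9, 0, 8 and 10 counts, and Ptcra, the gene of the pre-T alpha chain, 4 in all. No gene of the 7 gamma-delta T cell markers was above 1 CPM by limma (summed 1.35 to 2.36 CPM, Tcrg-C4 without a count). There was 1, Sox13, at an unadjusted p below 0.05, by edgeR, without replicate 2 (adjusted p = 0.000794, limma) and among the genes kept by filterByExpr (adjusted p = 0.00867, limma).

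The proximal signalling genes were nearly all expressed. Of 33, 32 were above 1 CPM and 1, Syk, passed neither test at 1.05 CPM ± 0.234. Syk is the relative of ZAP-70 that serves the B cell receptor. The highest per length were Lck, the kinase of the activation motifs, at 746.7 TPM ± 9.18, the phosphatase gene Ptpn6 at 560.9 ± 21.5, Zap70 at 527.4 ± 12.9 and the adaptor gene Lat at 421.7 ± 17.9. Zap70 and Lck were thus between the levels of Cd3d and Cd4 per length. The median of this list was 71.01 TPM, against 1.80 TPM over all genes tested, of which 47.4% were above 1 CPM.

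All 10 surface partners were above 1 CPM, with a median of 275.4 TPM. Cd5, which damps receptor signals, led at 1479 TPM ± 62.3 and stood near Trac. Its relative Cd6 reached 725.9 TPM ± 19.9, the inhibitory receptor gene Ctla4 650.0 ± 27.3 and the integrin gene Itgal 555.2 ± 21.2. All 18 regulators of receptor and coreceptor genes were above 1 CPM, with a median of 75.66 TPM. The highest were Tcf7 at 402.7 TPM ± 14.0, Ikzf1 at 402.4 ± 8.75, Tcf3 at 155.5 ± 4.28, whose E protein acts on receptor gene enhancers, and Cbfb at 139.7 ± 13.4, the partner of the Runx factors that silence or activate the coreceptor genes. Over the 4 lists, 61 of 71 genes were above 1 CPM and 6 below, against 47.4% above and 48.3% below of all genes tested.

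The protein-coding genes whose log2(TPM + 0.1) lay nearest to each gene over the 4 libraries had levels close to its own, as the measure asks. Nearest to Trac were Hspd1 and Pfn1 (root mean square difference 0.03 and 0.04), to Trbc2 Eef1g and Rps7 (0.02 and 0.04), and to Trbc1 Bzw2 and Psma2 (0.03 and 0.03). Nearest to Cd4 were Cct8 and Eif3b (0.01 and 0.03). For the CD3 chains they were Rpl34 and S100a10 for Cd3d (0.02 and 0.03), Heatr1 and Ogdh for Cd3e (0.02 and 0.02), Med10 and Chchd2 for Cd3g (0.03 and 0.04), and Atp6v1c1 and Nudt3 for Cd247 (0.02 and 0.02). Cd8b1 lay nearest to Tmem18 and Leng1 (0.05 and 0.06), and Cd8a to Cybb and Nupr1l (0.13 and 0.16), both at a similarly low level of 0.247 and 0.269 TPM.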

How the data were processed

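The authors counted read pairs per gene with featureCounts 1.4.6-p4 and deposited the raw counts, per the file headers. Exons of GENCODE M13 were used on STAR alignments to mm10, both ends had to map, and strand option 2 was set. The recorded command names no option to keep reads that fit several places or genes. The assay is labelled total RNA-seq, but its linked protocol carries polyadenylated RNA in its name. Transcripts, symbols (50376 of 50600 genes) and sequences came from GENCODE M21.

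From the deposited counts, CPM was computed with library totals and TPM with the deposited summed exon lengths. Levels were tested against 1 CPM with limma 3.58.1 on log2(CPM + 0.1), one-sided. Pairs were tested with limma on within-library differences of log2(TPM + 0.1) of all genes against each of the 10, and the larger of the 2 adjusted p-values was used. Variability used edgeR 4.0.16 (goodness of fit, TMM factors 0.9958 to 1.002, filterByExpr). All p-values were Benjamini-Hochberg adjusted at a threshold of 0.05, over all genes with a count or, for variability, over the genes kept by filterByExpr. The scripts were tested on simulated data. DESeq2 1.42.0 size factors were an alternative. Sequences were compared with blastn 2.17.0+ and Biopython 1.88. Scripts ran in python 3.11.15 (scipy 1.17.1, numpy 2.4.6, pandas 2.3.3, matplotlib 3.10.9) and R 4.3.3.

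The 10 genes and all lists were chosen with earlier results of these data known. Named are the 10 genes, the 4 highest genes in TPM of each list, every listed gene not above 1 CPM, the 2 nearest genes of each of the 10, genes within 100 kb and cell type markers.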

Additional observations from a re-analysis of the deposited data

Results flagged for a closer look

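Of 12 quantities examined for a library standing apart, 1 met the limit: in the TPM of Cd8a the gap between replicate 1 and the nearest other library took 0.921 of the whole range, above Dixon's 95% critical value for 4 samples. Such a limit marks about 1 in 20 groups by chance. The value rests on 28 counts in replicate 1 against 10, 25 and 11 in the others. Without replicate 1, Cd8a remained below 1 CPM (adjusted p = 8.14e-06, limma, n = 3).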

How the results depend on the processing

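The counts of receptor and coreceptor genes above and below 1 CPM stayed at 9 and 1 under every alternative run, and 43 to 45 of 45 pairs were called. Leaving out 1 library at a time gave 61 listed genes above 1 CPM and 5 to 6 below, 44 pairs, 0 variable genes, a Trbc1 share of 43.49 to 44.05% and a beta over Trac log2 ratio of 0.28 to 0.34. Without replicate 3 the fewer calls came from Tcrg-C2, which then had no count. With the filterByExpr filter 2 listed genes were below 1 CPM, since the other 4 were not tested. The Trbc1 share was 41.84% in TPM, 42.24% with coding and 51.28% with principal transcript lengths. Without length correction 7 called pairs reversed; beside Cd3e over Trbc1 and over Trbc2 these log2 ratios turned: beta over Trac to -0.076, Cd3d over Cd3e to -0.44, Cd3d over Trbc1 to 0.21, Cd3g over Cd247 to -0.077, Trac over Cd4 to -1.17 and Trbc2 over Cd4 to -2.08. With coding or principal transcript lengths, both added after the data were seen, Cd3d over Cd3e reversed to -0.58 and Cd3d over Cd3g to -0.22; with principal lengths Trbc1 over Trbc2 did so too, from -0.475 to 0.074 (adjusted p = 0.135, limma). Trbc1 over Cd4 passed the test under 5 other length settings, at -2.44 to 0.37, so its sign follows the length. Scaling alternatives moved the median gene by at most 0.02 on the log2 scale. No paired analysis was possible because there is 1 group. Depth limits Cd8a, with 74 counts in all, and the Trbj shares.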
